A study of Mus musculus with 10 samples.

Results

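The 83 genes described here encode the proteins of the cytosolic ribosome of the mouse. They were chosen by name alone from the 17864 genes of the table, as every protein-coding gene with a symbol of the form Rps or Rpl followed by a number and its letters, together with Rpsa, Rplp0, Rplp1 and Rplp2, and without the Rps6 kinases. No measured value chose a single gene, but the group as a whole was proposed with earlier results of this comparison in view, so its counts and medians are given as a description. Of 84 such genes in the GENCODE M21 annotation, 83 were in the table, and Rpl10l was not analysed here. The filter on low counts was passed by 82, of 14816 genes in all, and Rpl3l was below it.

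RNA was measured in whole tumors grown from 4T1, a mouse mammary carcinoma line that is a model of triple-negative breast cancer. All 10 tumors came from 4T1 cells that carried Cas9, the nuclease that cuts DNA where a guide RNA directs it. The 5 sgCon tumors came from cells with a control guide RNA and the 5 sgTaz tumors from cells with a guide RNA against Wwtr1, the gene of the transcriptional co-activator TAZ. By the methods, 100000 cells were placed in the mammary fat pad of female mice, SCID or BALB/c, aged 6 to 8 weeks. Which of these strains held the sequenced tumors is not given in the sources used here. The samples are labelled as tumor cells, but host cells were sequenced with them. The guide RNA acted in the injected cells and not in the host, and no source says whether they were a single clone. No source pairs the tumors or gives the animal of each, so p-values measure the spread between these tumors. The library totals of sgCon were 14753922 to 19595821 counts (median 17155103), and those of sgTaz were 12185383 to 18395558 counts (median 15566873).

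Ribosomal proteins and ribosomal RNA form the small subunit, which reads the messenger RNA, and the large subunit, which joins the amino acids. The messenger RNAs of these proteins begin with a run of pyrimidines, the terminal oligopyrimidine motif, through which mTOR and Larp1 control their translation together. Dividing tumor cells make many ribosomes, and activated immune cells do so too. Several ribosomal proteins have a paralog, a second gene of like sequence that is used in fewer tissues or at a lower level.

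The start of the gene is the feature the group is best known for, and the sequences at the start are therefore shown for 4 genes with among the lowest log2 fold changes between the groups (Rps27, Rplp2, Rps23 and Rpl41), for Rpl15, a common gene with a log2 fold change among the highest, and for 4 paralogs. Of the 83 genes, 63 had a start in the RefSeq promoter sequences of GRCm38.p6. Each line gives 15 bases before the start and 15 from it on, on the strand of the gene, and capitals mark a run of at least 6 bases of C or T that overlaps the 10 bases on either side of the start.
Rps27 (chr3:90213634-90213663, minus strand): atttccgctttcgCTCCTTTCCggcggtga
Rplp2 (chr7:141447636-141447665, plus strand): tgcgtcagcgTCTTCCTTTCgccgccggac
Rps23 (chr13:90923107-90923136, plus strand): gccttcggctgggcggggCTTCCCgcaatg
Rpl41 (chr10:128549154-128549183, minus strand): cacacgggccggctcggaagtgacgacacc
Rpl15 (chr14:18270972-18271001, minus strand): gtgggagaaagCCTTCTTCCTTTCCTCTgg
Rps27l (chr9:66946071-66946100, plus strand): ccaCTCCTCCCCgccgcctctatcccggaa
Rpl22l1 (chr3:28805493-28805522, plus strand): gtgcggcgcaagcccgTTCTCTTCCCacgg
Rpl7l1 (chr17:46782642-46782671, minus strand): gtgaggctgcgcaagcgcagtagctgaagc
Rpl36al (chr12:69184053-69184082, minus strand): cattcccgtcgctcaggttcagttccgact

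The 63 genes had 75 starts, with more than 1 start in 10 of the genes. Such a run was found at 1 start or more in 38 of the 63 genes, or 60.3%, compared with 32.7% of all 27025 genes with a RefSeq start, counted in the same way. It was present at 35 of 57 common genes and at 3 of 6 paralogs. The window of Rps27l shown is the first of its 2 starts, and the other holds no run. Among the genes tested, the median log2 fold change of sgTaz against sgCon was -0.31 for the 38 with a run and -0.35 for the 24 without, with quartiles of -0.39 to -0.22 and -0.45 to -0.26. A match describes the letters at an annotated start, which can lie some bases away from the start used in these tumors.

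Wwtr1, the target of the guide RNA, was at 192, 181, 115, 171 and 156 counts per 1000000 counts (CPM, normalized by TMM) in the 5 sgCon tumors and at 86.6, 104, 110, 139 and 102 in the 5 sgTaz tumors. The 1 value of sgTaz above the lowest sgCon value was that of tumor 4. The log2 fold change was -0.59 (SE 0.151, adjusted p = 0.096 with edgeR's quasi-likelihood test, 0.0127 with DESeq2, and 0.0127 to 0.233 over all alternatives). A cut in the gene need not lower its RNA, and host cells also carry the gene.

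Markers of other cells varied from tumor to tumor, and they are given before the results because these tumors were sequenced whole. In each marker list edgeR called 0 genes at an adjusted p below 0.05. DESeq2 called 3 T cell, 1 lymph node stroma and 1 epithelial marker lower, beside 3.6% of all genes tested. It called 4 macrophage markers, 1 fibroblast marker and 1 proliferation gene higher, beside 3.61%, and 0 genes in the other lists. The 8 epithelial markers of the tumor cells, led by Krt8, had summed levels of 2187 to 4930 CPM in sgCon tumors and 1595 to 3856 CPM in sgTaz tumors, and 8 of 8 had a log2 fold change below 0 (median -0.48). The 10 B cell markers, led by Cd79a, summed to 164, 246, 1047, 79.6 and 487 CPM in sgCon tumors and to 8.53, 8.2, 25.6, 14.6 and 247 CPM in sgTaz tumors. Ms4a1 and Blk were at 0 in 1 tumor each and Fcer2a and Cr2 in 2 each. Lymph node stroma markers, led by Glycam1, summed to 174, 192, 914, 66.4 and 319 CPM in sgCon and to 37, 12.7, 21.4, 20.2 and 395 CPM in sgTaz, and Glycam1 was at 0 in 3 tumors, Ccl19 in 2 and Madcam1 in 1. sgTaz tumor 5 thus stood apart from its group, and sgCon tumor 3 held the most of both lists among sgCon tumors. Of the other lists, 8 of 8 T cell markers (median -1.77) and 6 of 6 neutrophil markers (-0.96) had log2 fold changes below 0, while 8 of 8 macrophage markers (0.51), 5 of 7 fibroblast markers (0.14) and 7 of 10 proliferation genes (0.26) were above 0. The T cell list summed to 88.8 to 697 CPM in sgCon and 58.1 to 180 CPM in sgTaz, and the macrophage list, led by C1qa, to 810 to 1861 CPM in sgCon and 1558 to 2191 CPM in sgTaz. The adipocyte list, led by Fabp4, summed to 96.4, 116, 54.2, 94.8 and 95.4 CPM in sgCon and to 54.7, 40.9, 236, 197 and 229 CPM in sgTaz. It was thus highest in sgTaz tumors 3 to 5, and 5 of 5 genes tested were above 0 (median 1.42). The skeletal muscle list, led by Tnnt3, summed to 6.64 to 43.9 CPM in a tumor, and the 2 genes tested were in opposite directions.

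Ribosomal protein genes took a smaller part of the RNA in sgTaz tumors. Their counts were 7.65%, 7.71%, 8.85%, 9.5% and 7.69% of all counts in the sgCon tumors and 6.71%, 6.83%, 6.63%, 6.38% and 6.69% in the sgTaz tumors. Every sgTaz tumor was below every sgCon tumor, with means of 8.28% ± 0.85 and 6.65% ± 0.168 (SD, n = 5 each). The 95% Wilson interval of a share was at most 0.0276 percentage points wide, which covers counting error only. Counts of the 15 genes of the mitochondrial genome were 2.63% ± 0.707 in sgCon and 2.66% ± 0.616 in sgTaz, and without them the shares were 8.51% ± 0.884 and 6.83% ± 0.208. In bulk RNA, fewer cells of a type with many ribosomes and less ribosomal protein RNA per cell cannot be told apart. The shares carry no adjustment for transcript length. Other genes with transcripts under 600 bases were also lower in sgTaz, at a median log2 fold change of -0.20. The part of transcript length in the shares was not tested.

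High shares and high levels of B cell and stroma markers were not always found in the same tumors. sgCon tumor 4 had the highest share, 9.5%, with the lowest B cell and stroma levels of its group, 79.6 and 66.4 CPM. sgTaz tumor 5 had a share of 6.69%, amid its group, with B cell and stroma levels of 247 and 395 CPM, above those of 3 and 4 sgCon tumors, respectively. sgCon tumor 3 had the second highest share, 8.85%, with the highest B cell and stroma levels, 1047 and 914 CPM. The part of these and the other marker lists in the result was not tested.

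The genes moved together from tumor to tumor. The median over the 82 genes of log2 CPM, taken relative to the mean of each gene over the 10 tumors, was 0.08, 0.04, 0.26, 0.33 and 0.04 in sgCon and -0.15, -0.10, -0.16, -0.23 and -0.16 in sgTaz. Of the 82 genes, 80 were above their own mean in sgCon tumor 3 and 81 in sgCon tumor 4, compared with 55 to 68 in the other sgCon tumors. Between 3 and 14 were above it in each sgTaz tumor. sgCon tumors thus varied more than sgTaz tumors. These values carry no adjustment for GC content or transcript length. The same counts are not given for other genes, so whether other short transcripts moved in the same way was not tested.

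**Figure D1:**
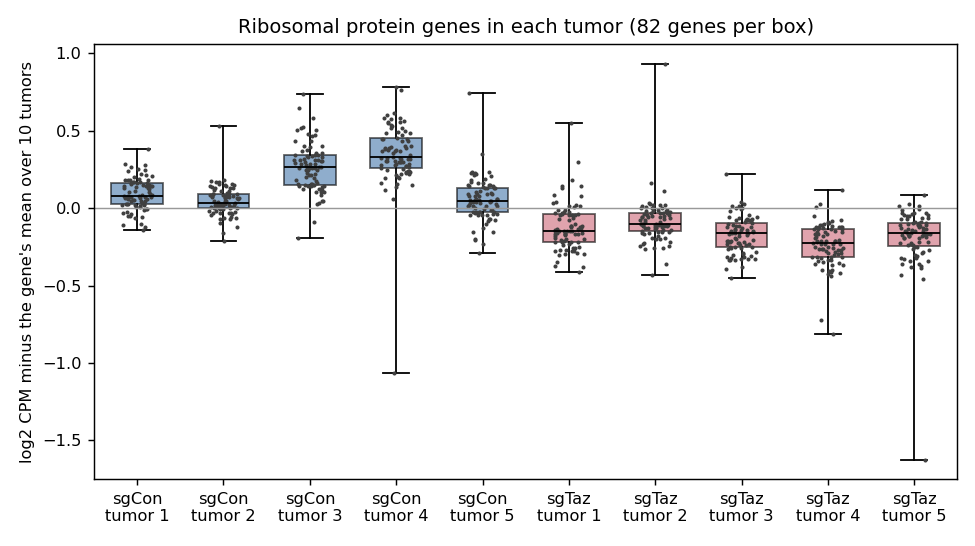
Each box shows the 82 ribosomal protein genes in 1 tumor, with log2 CPM minus the mean of the gene over the 10 tumors on the y axis; the line is the median, the box the quartiles, the whiskers the full range and the points single genes. Medians of the sgTaz tumors lie between -0.23 and -0.10 and those of the sgCon tumors between 0.04 and 0.33; the lowest point, in sgTaz tumor 5, is that of Rpl39l, which had 1 to 16 counts.

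Gene by gene, 79 of 82 log2 fold changes were below 0, compared with 53% of all genes tested, and with an adjustment for GC content and length, described further on, 58 of 82 were, compared with 41%. The median was -0.32 (quartiles -0.41 and -0.22) over the 82 genes and -0.02 over all genes tested. With the adjustment these medians were -0.09 and 0.05. In 47 genes all 5 sgTaz values lay below all 5 sgCon values, and in 0 above, compared with 2.13% and 2.44% of all genes tested. After the adjustment 6 genes lay below in this way and 0 above, compared with 0.823% and 3.1%. The median was -0.37 for the 32 genes of the small subunit and -0.30 for the 50 of the large subunit. These subunit medians were -0.12 and -0.07 with the adjustment. The difference between subunits was not tested.

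By edgeR's quasi-likelihood test, 0 of the 82 genes had an adjusted p below 0.05, as did 0% of all genes tested that were lower in sgTaz and 0.00675% that were higher. At an unadjusted p below 0.05, 69 were lower and 0 higher, compared with 11.9% and 9.86% of all genes tested. With the adjustment for GC content and length, 17 were lower and 5 higher, compared with 7.07% and 13.6%. The lowest adjusted p of a ribosomal protein gene was 0.0824. DESeq2 called 51 lower (3.6% of all genes tested) and 0 higher (3.61%), and limma-voom with quality weights called 50 lower (5.8%) and 0 higher (4.63%). Without sgTaz tumor 5, which stood apart by its markers, edgeR called 3 lower (0.868%) and 0 higher (0.28%), the median was -0.32, and 49 genes had all sgTaz values below all sgCon values (4.92% of all genes tested in that fit). Without sgTaz tumor 2 it called 4 lower (0.233%) and 0 higher (0.266%).

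**Figure D2:**
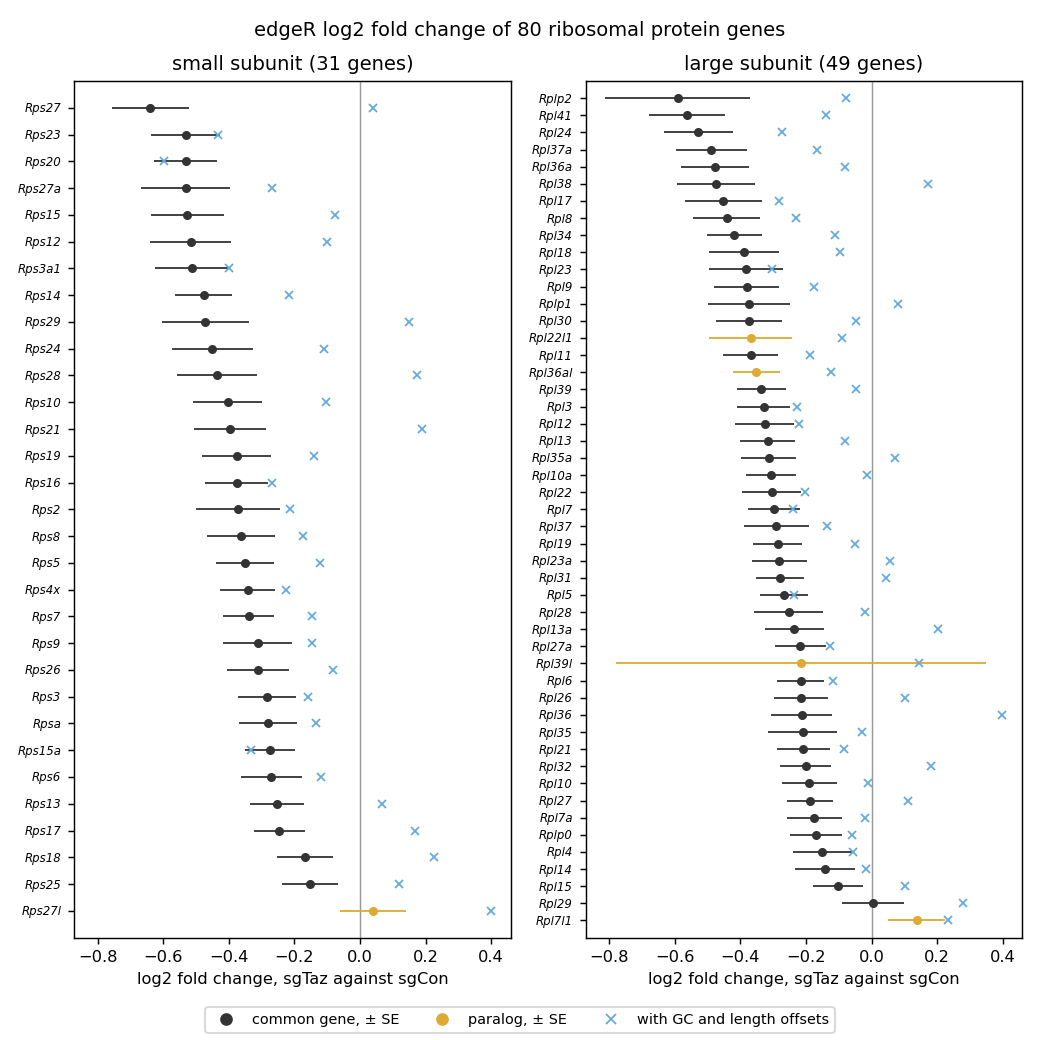
Points give the edgeR log2 fold change of sgTaz against sgCon (x axis) for 80 of the 82 ribosomal protein genes tested, with bars of 1 SE, for the small and large subunit; dark points are common genes, yellow points paralogs, and crosses the values with GC content and length offsets. Of the 80 points 77 lie below 0, and of the crosses 57.

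In the small subunit, Rps27, a zinc-binding protein of the subunit body, had the lowest log2 fold change. It was at 1133, 1046, 1552, 1134 and 983 CPM in sgCon and at 783, 690, 758, 736 and 788 CPM in sgTaz. The groups did not overlap, and sgCon tumor 3 was far above the other sgCon tumors. The log2 fold change was -0.64 (SE 0.117, edgeR adjusted p = 0.0824, DESeq2 adjusted p = 0.00021, and 0.00021 to 0.913 over all alternatives), and 0.04 with GC content and length offsets. With these offsets the groups overlapped. Rps27 has a transcript of 345 bases, the shortest of the 82, and 98.6% of its 50-base windows also occur in other annotated genes, so its level depends on how such reads were counted.

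Rps23, a protein of the decoding center, was at 897, 927, 1220, 1258 and 1016 CPM in sgCon and at 736, 799, 735, 707 and 702 CPM in sgTaz, without overlap. Its log2 fold change was -0.53 (SE 0.105, edgeR adjusted p = 0.0824) and -0.43 with the offsets, again without overlap. Rps12, near the beak of the subunit, was at 1777 to 2363 CPM in sgCon and at 1191 to 1727 CPM in sgTaz. Its log2 fold change was -0.52 (SE 0.123), and sgTaz tumor 2, at 1727 CPM, reached almost to the lowest sgCon tumor. With the offsets Rps12 was at -0.10. Rps24 was at 1930 ± 372 CPM in sgCon and 1412 ± 83.9 CPM in sgTaz, with overlap (log2 fold change -0.45, SE 0.124, and -0.11 with the offsets). Rps27a, whose protein is made as a fusion with ubiquitin, had a log2 fold change of -0.53 (SE 0.136, and -0.27 with the offsets), and its sgCon tumor 4, at 2414 CPM, was far above the 1460 to 1646 CPM of the other 4.

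Of the small subunit proteins best known for roles beside the ribosome, Rpsa, also described as a laminin receptor, had no overlap between groups, at 3331 ± 367 CPM in sgCon and 2741 ± 105 CPM in sgTaz (log2 fold change -0.28, SE 0.0879). Rps3, at the entry of the messenger RNA channel, had values of 1206 to 1518 CPM in sgCon and 998 to 1214 CPM in sgTaz. The groups of Rps3 overlapped by 1 tumor of each, and its log2 fold change was -0.28 (SE 0.0886). Rps6, the protein that S6 kinase phosphorylates, was at 1009 ± 99.3 and 836 ± 80.5 CPM, with overlap (log2 fold change -0.27, SE 0.0941, and -0.12 with the offsets). Rps4x, Rps3 and Rpsa had log2 fold changes of -0.23, -0.16 and -0.13 with the offsets, and the groups of Rpsa then overlapped.

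In the large subunit, the lowest log2 fold changes were those of Rplp2 and Rpl41. Rpl41, the smallest protein of the ribosome, was at 1690, 1577, 1840, 2264 and 1756 CPM in sgCon and at 1268, 1492, 1146, 1128 and 1149 CPM in sgTaz. The groups did not overlap, and the log2 fold change was -0.56 (SE 0.116, edgeR adjusted p = 0.0824, and -0.14 with the offsets). With the offsets the groups overlapped.

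The stalk of the large subunit, which recruits elongation factors, is built from Rplp0, Rplp1 and Rplp2 on a base that Rpl12 joins. All 4 had log2 fold changes below 0, with a median of -0.35, which was -0.07 with the offsets, and DESeq2 called 1 of them, Rpl12, lower. Over all genes tested, 53% were below 0 and DESeq2 called 3.6% lower. Rplp2 was at 738, 729, 1187, 1346 and 1010 CPM in sgCon and at 836, 885, 580, 451 and 576 CPM in sgTaz. Its groups overlapped, since sgCon tumors 1 and 2 were below sgTaz tumors 1 and 2, and its log2 fold change of -0.59 (SE 0.221) was -0.08 with the offsets. Rplp1 was at 2065 ± 389 CPM in sgCon and 1592 ± 130 CPM in sgTaz (log2 fold change -0.37, SE 0.125, and 0.08 with the offsets). Rplp0 was at 933 ± 75.5 and 830 ± 51 CPM (-0.17, SE 0.0786, and -0.06 with the offsets). Rpl12 was at 1686 ± 193 and 1345 ± 83.3 CPM (-0.33, SE 0.0909, and -0.22 with the offsets), without overlap. With the offsets its groups overlapped.

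Rpl5, Rpl11 and Rpl23 bind Mdm2, the ubiquitin ligase of p53, when ribosome assembly is disturbed, the first pair of them together with 5S ribosomal RNA. All 3 were lower in every sgTaz tumor than in every sgCon tumor, with log2 fold changes of -0.27, -0.37 and -0.38 (SE 0.0735, 0.0849 and 0.113) and edgeR adjusted p of 0.101, 0.0928 and 0.114. DESeq2 called the 3 of them. Of all genes tested, 2.13% had no overlap in this direction and DESeq2 called 3.6% lower. Rpl11 was at 861, 838, 997, 1082 and 880 CPM in sgCon and at 675, 759, 732, 705 and 737 CPM in sgTaz. With the offsets the values were -0.24 for Rpl5, -0.19 for Rpl11 and -0.30 for Rpl23, and the groups of all 3 overlapped.

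Without the offsets, the common genes with the highest log2 fold changes included Rpl29 and Rpl15. Rpl29, also known as a heparin-binding protein, was at 64.4 ± 6.13 CPM in sgCon and 64.7 ± 7.05 CPM in sgTaz, with a log2 fold change of 0.01 (SE 0.0947) that was just below 0 when 10 counts were required in all tumors and 0.28 (SE 0.104) with the offsets. Its transcript shares 50-base windows with 84 other annotated genes, so that its level is uncertain. Rpl15 was at 725 ± 60.7 and 676 ± 37.3 CPM, with a log2 fold change of -0.10 (SE 0.0764), and 0.10 with the offsets.

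Levels between genes were compared per length. Per kilobase of the representative transcript, the median level of the 82 genes was 1171 CPM per kilobase, with quartiles of 786 and 1578. The highest were Rplp1 at 3665, Rps12 at 3340, Rps24 at 3183 and Rpl41 at 3008 CPM per kilobase, and the lowest Rpl39l at 1.03, Rpl26 at 46.4, Rpl7l1 at 85.4 and Rpl29 at 90.9. The order depends on the length used, since a representative transcript can be far longer than its coding part, as for Rps15a (named after its value was seen) at 5130 and 390 bases, with 150 CPM per kilobase of transcript and 1979 per kilobase of coding length. Per kilobase of coding length the highest were Rpl41 at 11094, Rplp1 at 5347 and Rps29 at 4844 CPM per kilobase. On both scales Rpl26 and Rpl29, at 64.7 and 134 CPM per kilobase of coding length, were the lowest of the common genes. Rpl26, a protein near the exit of the peptide tunnel, was at 30.2 ± 2.17 CPM in sgCon and 26.1 ± 1.69 CPM in sgTaz (log2 fold change -0.21, SE 0.0829, and 0.10 with the offsets), and 61% of its 50-base windows occur elsewhere.

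Across the 82 genes, the log2 fold change had a Pearson's r of -0.387 and a Spearman's rho of -0.39 with the log2 level per kilobase, as a description over genes that share libraries and length. The coefficient of variation within groups had a median of 9.69% and a range of 5.62% to 61.9%. It was largest for Rpl39l at 61.9%, Rplp2 at 27.6% and Rps27a at 17.3%.

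**Figure D3:**
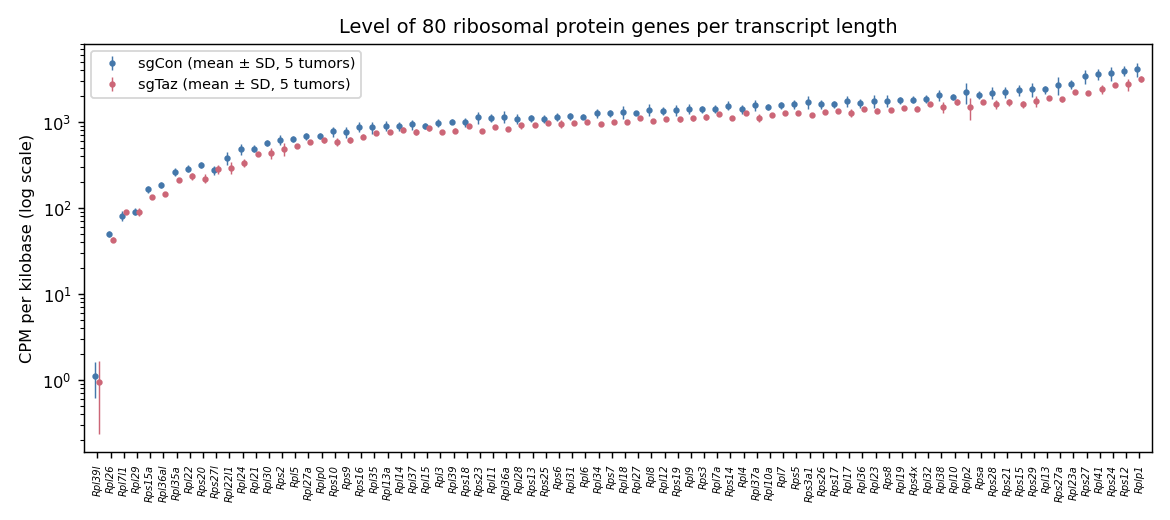
The y axis gives the TMM-normalized level in CPM per kilobase of transcript on a log scale, as mean and SD of 5 tumors in sgCon (blue) and sgTaz (red), for 80 of the 82 genes in order of level. The quartiles over these genes are 756 and 1564 CPM per kilobase, with Rpl39l lowest at 1.03 and Rplp1 highest at 3665.

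Ribosomal protein genes differ from most genes in ways that bear on counts. Their representative transcripts had a median length of 724 bases, compared with 2447 bases for the other genes tested, and 65 of 82 were under 1000 bases. The median GC content was 51.9% against 50.6%. A median of 60.2% of their 50-base windows, with a range of 0% to 98.6%, occurred in other annotated genes, pseudogenes among them, and in 50 genes the share was over 50%. The 28 rows of the table that are annotated as ribosomal protein pseudogenes held 0.0703% to 0.0914% of the counts of a tumor. Exons of 14 of the genes overlapped those of another gene, by over 50% in 5 (Rpl35, Rpl13a, Rpl23a, Rpl24 and Rps10, named after their values were seen). For Rpl13a, Rpl24 and Rps10 the overlap was on the same strand for 410, 484 and 456 bases, and these reads cannot be assigned to 1 gene by strand. For Rpl35 and Rpl23a the overlap was on the opposite strand, and the strand setting of the counting is not given in the sources used here, so those reads cannot be told apart.

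Short transcripts outside the group were also lower in sgTaz tumors. Among other genes, the median log2 fold change was -0.20 for 566 genes under 600 bases, -0.11 for 1365 genes of 600 to 1000 bases, -0.06 for 3832 genes of 1000 to 2000 bases and 0.08 for 1726 genes of 5000 bases or more. In the same classes the ribosomal protein genes were at -0.37 (27 genes), -0.34 (38 genes) and -0.22 (13 genes), which is 0.18, 0.23 and 0.16 below the other genes of their class. Offsets for GC content and length, fitted as splines in each tumor, brought the median of the group to -0.09, with that of all genes tested at 0.05.

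With these offsets 58 of 82 genes were below 0 (41% of all genes tested), 6 had no overlap between groups in the lower direction (0.823% of all genes tested), and 0 in the higher (3.1%). At an unadjusted p below 0.05 edgeR then had 17 genes lower (7.07%) and 5 higher (13.6%), with 0 called. Under 600 bases, the other genes were then at a median of 0.26 and the 27 ribosomal protein genes at 0.08. The offsets thus moved both past 0 in that class. Within the 3 shortest classes the ribosomal protein genes were 0.18, 0.20 and 0.17 below the other genes with the offsets. Offsets for length move genes of like length nearly alike, so these values say nothing on stability. Among genes of at least 500 CPM, the 177 other genes had a median log2 fold change of -0.02 and the 67 ribosomal protein genes of -0.33 without the offsets, and of 0.07 and -0.11 with them.

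**Figure D4:**
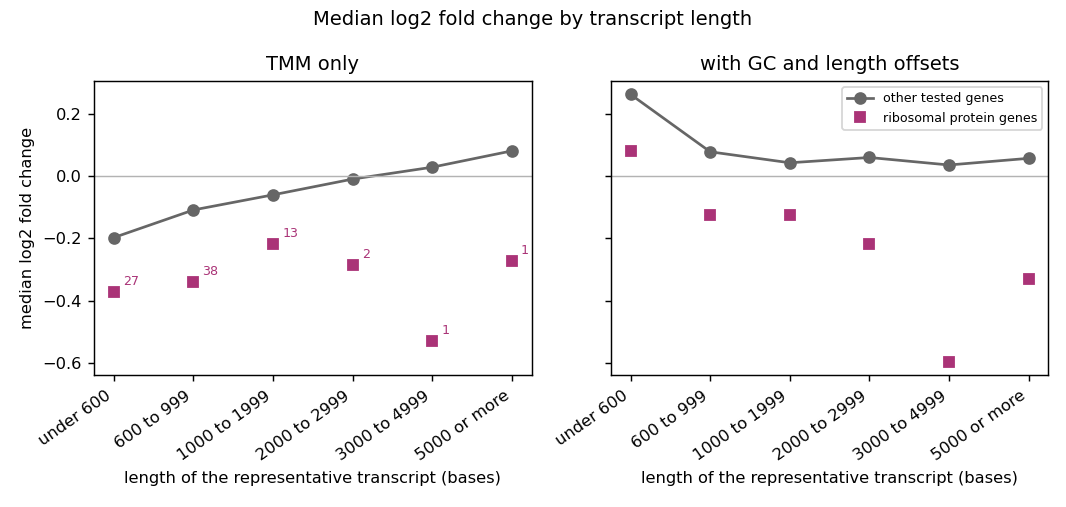
Median log2 fold change of sgTaz against sgCon (y axis) by length of the representative transcript in bases (x axis), for ribosomal protein genes (squares, with the number of genes) and all other tested genes (circles), with TMM alone on the left and with GC content and length offsets on the right. The squares of the 3 shortest classes lie 0.16 to 0.23 below the circles on the left and 0.17 to 0.20 below on the right.

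Paralogs were set against their common gene within each tumor, which takes out the scaling of libraries. For the 6 pairs whose paralog had 10 or more counts in at least 5 tumors, the log2 ratio of counts was compared by an exact two-sided permutation test of 5 against 5 tumors, for which the smallest p is 0.00794, with p adjusted over the 6 pairs. Rps27l, a paralog of Rps27 known as a p53 target, is identical to it at 76.2% of coding bases. Its counts were 11.8%, 14.5%, 8.42%, 13.7% and 12% of those of Rps27 in sgCon and 21.9%, 19%, 18.6%, 17.9% and 17% in sgTaz. All sgTaz tumors were above all sgCon tumors, and the log2 ratio differed by 0.66 (exact permutation p = 0.00794, adjusted p = 0.0238).

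The level of Rps27l itself differed by less than its SE, at 138 ± 15.4 CPM in sgCon and 142 ± 17 CPM in sgTaz (log2 fold change 0.04, SE 0.0995, which is below 0 without sgCon tumor 5 or sgTaz tumor 1). With the offsets Rps27l was at 0.40 (SE 0.145, edgeR adjusted p = 0.161), the highest of the 82, and Rps27 at 0.04. Both transcripts are under 600 bases, where the other genes were at a median of 0.26 with the offsets and -0.20 without. Which gene of the pair lay further from 0 thus depended on the offsets. The transcript of Rps27 is the shorter, at 345 bases against 499. With GC content and length offsets the log2 ratio differed by 0.35 (exact permutation, adjusted p = 0.0714, and 0.0159 to 0.0938 over all alternatives).

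Rpl7l1, a distant relative of Rpl7 with a role in ribosome assembly, had counts of 5.73%, 6.73%, 5.74%, 5.89% and 5.24% of those of Rpl7 in sgCon and 8.6%, 7.36%, 7.79%, 8.06% and 7.86% in sgTaz. The groups did not overlap. The log2 ratio differed by 0.44 (exact permutation p = 0.00794, adjusted p = 0.0238) and by 0.48 with the offsets (adjusted p = 0.0476, and 0.0159 to 0.0938 over all alternatives). Rpl7l1 had the highest log2 fold change of the 82 genes without the offsets, 0.14 (SE 0.0878, and 0.23 with the offsets), at 107 ± 13.7 CPM in sgCon and 117 ± 5.17 CPM in sgTaz, while Rpl7 was at 1817 ± 170 and 1479 ± 58.1 CPM.

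**Figure D5:**
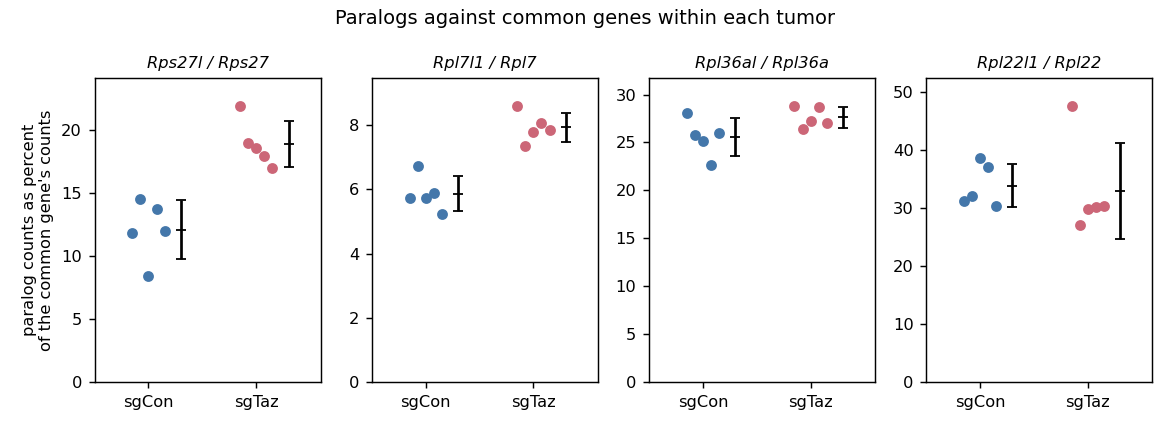
Counts of a paralog as percent of the counts of its common gene (y axis, from 0) in each of 5 sgCon (blue) and 5 sgTaz (red) tumors, with mean and SD in black, for 4 pairs. The groups do not overlap for Rps27l/Rps27 and Rpl7l1/Rpl7 and overlap for Rpl36al/Rpl36a and Rpl22l1/Rpl22, where sgTaz tumor 1 is at 47.6%.

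The other pairs did not pass the test. Rpl36al, identical to Rpl36a at 87.7% of coding bases, was at 25.5% ± 1.98 of Rpl36a in sgCon and 27.6% ± 1.06 in sgTaz (difference of log2 ratios 0.12, exact permutation p = 0.0635, adjusted p = 0.127), and -0.05 with the offsets. Both genes of this pair were lower in sgTaz without overlap in CPM, as were 2.13% of all genes tested, with Rpl36al at 141 ± 11.3 and 111 ± 6.91 CPM. With the offsets the groups of both overlapped, and their log2 fold changes were -0.13 for Rpl36al and -0.08 for Rpl36a. Rpl22l1, which is known to replace Rpl22 when that is lost, was at 33.8% ± 3.73 and 33% ± 8.28 of Rpl22 (difference -0.06, and 0.10 with the offsets, exact permutation p = 0.73, adjusted p = 0.876). The level of Rpl22l1 in sgTaz tumor 1, 198 CPM, was above the 143 to 146 CPM of the other sgTaz tumors.

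Rpl39l, the testis form of Rpl39, had 1 to 16 counts in a tumor, with 10 or more in 5 tumors, and a log2 ratio that differed by -0.11, with a sign that depended on the pseudocount (exact permutation p = 0.881, adjusted p = 0.881). Rps4l, which M21 annotates as a processed pseudogene and which is not among the 83 genes, was at 0.226% ± 0.0558 and 0.29% ± 0.0621 of Rps4x (difference 0.37, exact permutation p = 0.135, adjusted p = 0.202). Rpl3l, the striated muscle form of Rpl3, had 0 to 6 counts, too few to compare. It was at 0 in sgTaz tumors 1 and 4, where 3 counts would be 1.93e-05% and 2.46e-05% of the library. Rpl3, its common form, was at 1314 ± 136 CPM in sgCon and 1046 ± 24.3 CPM in sgTaz (log2 fold change -0.33, SE 0.0807, and -0.23 with the offsets).

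Other genes of the ribosome and of translation were taken from lists. Fau, whose ribosomal protein is made as a fusion with a ubiquitin-like protein, and Rack1, a scaffold on the small subunit, carry other kinds of names and were outside the 83. Both were lower in sgTaz without overlap between groups, as were 2.13% of all genes tested. Fau was at 876, 759, 1132, 1272 and 1044 CPM in sgCon and at 598, 730, 558, 505 and 592 CPM in sgTaz, and its log2 fold change of -0.77 (SE 0.145, edgeR adjusted p = 0.0824) was -0.32 with the offsets. Rack1 was at -0.17 (SE 0.0693), and -0.07 with the offsets. DESeq2 called Fau lower and not Rack1, beside 3.6% of all genes tested.

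Of 18 elongation and initiation factors and other genes with a terminal oligopyrimidine motif, 17 were below 0, with a median of -0.16, and of -0.08 with the offsets. edgeR called 0 of them and DESeq2 3 lower, beside 3.6% of all genes tested, and with edgeR 6 had an unadjusted p below 0.05, all lower, beside 11.9%. Eef1g, a subunit of the factor that recharges eEF1A, was at -0.39 (SE 0.112), Tpt1 at -0.38 (SE 0.115), Eif3h at -0.00 (SE 0.0754) and Eif3l at 0.25 (SE 0.139). Of 28 genes of RNA polymerase I and ribosomal RNA processing, 11 were below 0 and 17 above (median 0.05, and 0.12 with the offsets), with 0 called by edgeR or DESeq2, and 4 higher and 0 lower at an unadjusted p below 0.05 (9.86% and 11.9% of all genes tested). Wdr12 and Gnl3 were highest, at 0.24 and 0.22 (SE 0.0984 and 0.0799), and Bop1 and Nip7 lowest, at -0.14 each, Bop1 at -0.01 and Nip7 at 0.17 with the offsets.

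Of 10 regulators of growth and of these messenger RNAs, 8 were above 0 (median 0.06, and 0.09 with the offsets), with 0 called by edgeR or DESeq2 and 1 lower at an unadjusted p below 0.05 (11.9% of all genes tested). Larp1, the binding protein of the motif, was at 0.13 (SE 0.0901) and Rps6kb1, S6 kinase 1, at 0.14 (SE 0.0879). Rps6kb2, S6 kinase 2, was at 15.4 ± 3.41 CPM in sgCon and 10.6 ± 1.67 CPM in sgTaz. Its groups did not overlap, as for 2.13% of all genes tested in this direction. The log2 fold change was -0.54 (SE 0.171, edgeR adjusted p = 0.126, DESeq2 adjusted p = 0.0556), and -0.39 with the offsets. Eif4ebp1 was at -0.09 (SE 0.0857), and 0.01 with the offsets.

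Mitochondrial ribosomal proteins serve the separate ribosome of mitochondria. Of 78 genes, 58 were below 0 with a median of -0.09, which was 0.08 with the offsets, 1 had all sgTaz values below all sgCon values (2.13% of all genes tested), and 0 were called by edgeR or DESeq2 (12 lower and 0 higher at an unadjusted p below 0.05, beside 11.9% and 9.86% of all genes tested). Mrpl53 and Mrpl43 were lowest, at -0.53 and -0.34 (SE 0.385 and 0.127), and Mrpl3 and Mrps36 highest, at 0.22 and 0.21 (SE 0.114 and 0.0996). With the offsets these 4 were at -0.27, -0.23, 0.29 and 0.54. The difference between the cytosolic and the mitochondrial group was not tested.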

How the data were processed

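Total RNA of whole tumors was sequenced on an Illumina HiSeq 2000. Per the labels and the methods, the authors mapped reads to GRCm38 (mm10) with STAR and counted reads per gene with featureCounts of Subread. Versions, strand setting and the treatment of reads that map to several genes are not given in the sources used here. The deposited values are whole-number counts per gene without normalization. The table has 5 further columns of values, which were not used.

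Groups came from the sample labels. Identifiers were matched to GENCODE M21 (17860 of 17864). Counts were tested with edgeR 4.0.16 in R 4.3.3 (TMM, filterByExpr by group, quasi-likelihood test, Benjamini-Hochberg over 14816 genes, adjusted p below 0.05). DESeq2 1.42.0 and limma 3.58.1 (voom), RLE and other scalings, filters, replicate blocks, offsets (splines with 5 degrees of freedom) and each tumor left out were alternatives. The methods name DESeq2. Log2 CPM used a prior count of 2 and pair ratios a pseudocount of 0.5. Transcript length was that of the lower median of the basic protein-coding transcripts. Scripts were tested on simulated data.

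The genes and lists were chosen with earlier results of these data known. Named were Wwtr1, the paralog pairs, 8 listed genes, the 5 highest and 5 lowest log2 fold changes, the 4 highest and 4 lowest levels, the 3 largest coefficients of variation, genes below the filter, and the 2 highest and 2 lowest of each further list. A few genes that this rule names are not reported here, nor drawn in the plots that label single genes, but they remain in all counts and medians.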

Additional observations from a re-analysis of the deposited data

Results flagged for a closer look

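Single tumors far from the other 4 of their group were looked for with Dixon's test in 122 groups of values, of which 10 passed its 95% line. Chance gives about 1 in 20, or 6.1 groups. In sgCon tumor 4, Rpl23 was at 2435 CPM (others 1651 to 1805), Rpl7 at 2113 CPM (1693 to 1804), Rps12 at 2363 CPM (1777 to 1893) and Rps27a at 2414 CPM (1460 to 1646). In sgCon tumor 3, Rps27 was at 1552 CPM (983 to 1134). In sgTaz tumor 2, Rps12 was at 1727 CPM (1191 to 1310). In sgTaz tumor 1, Rpl22l1 was at 198 CPM (143 to 146), Rps27l at 171 CPM (131 to 141) and Rps4l at 2.42 CPM (4.26 to 4.86), and Rpl22l1 had 47.6% of the counts of Rpl22 (27% to 30.3%). sgCon tumor 4 also had the largest share of counts in ribosomal protein genes, 9.5%.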

How the results depend on the processing

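The median over the ribosomal protein genes stayed below 0 under all alternatives run (-0.355 to -0.0872), while the count called by edgeR, 0, was 51 with DESeq2 and 50 with limma-voom. With each tumor left out edgeR called 0 to 4 (4 without sgTaz tumor 2, 3 without sgTaz tumor 5). Of 137 genes of ribosome making and translation outside the group, DESeq2 called 5 and limma-voom 9, all lower (beside 3.6% and 5.8% of all genes tested), and edgeR 0 (0 to 1 with a tumor left out, 1 without sgTaz tumor 2). Wwtr1 passed the threshold with DESeq2 (-0.58) and limma-voom (-0.59).

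With GC content and length offsets the median was -0.0872 and 6 genes had no overlap (0.823% of all genes tested), and with the replicate block and these offsets the median was -0.0907. Of alternatives chosen after seeing the data, length offsets alone gave -0.11 and 8 genes, GC content offsets alone -0.23 and 9 genes, offsets from the union of exons -0.18 and 12 genes, and offsets fitted without ribosomal protein genes -0.0879 and 5 genes, beside 0.898%, 0.783%, 0.979% and 0.817% of all genes tested. Of the genes named, the log2 fold changes that turned above 0 with the offsets, and with the replicate block and offsets, were those of Eif3h (0.0954 and 0.10), Eif4ebp1 (0.0128 and 0.0041), Nip7 (0.17 and 0.18), Rpl15 (0.10 and 0.10), Rpl26 (0.10 and 0.10), Rpl39l (0.15 and 0.0301), Rplp1 (0.0795 and 0.0875), and Rps27 (0.0407 and 0.0345). Eif3h, at -0.00 otherwise, was at 0.0085 with DESeq2, 0.0548 with limma-voom, 0.0085 with RLE, 0.0058 with TMM from the other genes, 0.0226 without a filter, 0.0009 with the replicate block and -0.0519 to 0.0329 with a tumor left out. Rpl29 was at -0.0014 with 10 counts required in all tumors. With a tumor left out, Rpl29 was at -0.0530 to 0.0586, Rpl39l at -0.6038 to 0.0505, Rps27l at -0.0368 to 0.0863 and Rps4l at -0.1003 to 0.1637. The cause of these reversals was not tested.

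For the pairs, the replicate block left the differences of log2 ratios at 0.6615 (Rps27l) and 0.4390 (Rpl7l1) with an adjusted exact permutation p of 0.0938 each, the same as for Rpl36al and Rps4l. With 5 pairs the smallest unadjusted p is 0.0625, so no pair could pass the threshold and these values say nothing on stability. The offsets, chosen for the pairs after seeing the data, gave 0.3530 for Rps27l, 0.1039 for Rpl22l1, 0.0230 for Rpl39l and -0.0529 for Rpl36al. Rpl39l was at 0.0610 with a pseudocount of 2. With a tumor left out, Rpl39l was at -0.5236 to 0.3803, Rpl22l1 at -0.2017 to 0.0021 and Rpl36al at 0.0729 to 0.1517, the last past the threshold without sgCon tumor 1.

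Tumors with the same number did not deviate together (r of -0.15, -0.243, -0.049, 0.0932 and 0.221 for numbers 1 to 5), so the numbers were not read as pairs. With the replicate block edgeR called 0 ribosomal protein genes, with 58 lower and 0 higher at an unadjusted p below 0.05 (9.44% and 7.18% of all genes tested). Depth limits Rpl3l and Rpl39l, with 0 to 6 and 1 to 16 counts in a tumor.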
